A study of Arabidopsis thaliana with 24 samples.

Results

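AT1G59740, which RefSeq also lists as NPF4.3, is a gene of the NPF family (NRT1/PTR family) of Arabidopsis thaliana. It was read on an Affymetrix ATH1 array by 1 probe set, 262912_at, which names this locus alone in the probe annotation, out of 13513 probe sets with 1 named gene and 22746 probe sets tested. The gene was chosen by its higher level on the auxin NAA than on medium alone, after 2 and after 5 days, so its levels in those groups are a description and carry no test.

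Messenger RNA of laser-captured tissue from wild-type stems was hybridised to 24 arrays, 3 biological replicates in each of 8 groups. Starch sheath, a ring of starch-storing cells just outside the bundles and the regions between them, was taken from untreated stems, after 2 days on NAA (1-naphthaleneacetic acid, a synthetic auxin), and after 2 and 5 days on MS medium without it. At 5 days on NAA interfascicular cambium was captured, the dividing layer formed between the bundles, and it is set against starch sheath after 5 days on medium. Stem tissue free of starch sheath and bundles was taken untreated and after 2 and 5 days on NAA. No group holds such stem tissue on medium alone, so in this tissue auxin, excision and time in culture cannot be told apart. All cultured groups were excised stem fragments, while the untreated groups were not cultured. How many plants stand behind a replicate is not stated in the labels, and RNA was amplified before labelling.

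NPF proteins are membrane transporters that couple the uptake of a solute to a proton gradient. Different members carry nitrate, short peptides, glucosinolates or plant hormones, including abscisic acid, gibberellin and auxin. In stems, auxin moves towards the base, feeds the vascular cambium and can start cell divisions between the bundles, the process studied here.

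AT1G59740 was near the median of all values in every group without NAA and among the highest probe sets in the interfascicular cambium. All levels are log2 expression as deposited, on which the median of all values was 3.09. In the cambium after 5 days on NAA the 3 arrays gave 8.71, 10.68 and 8.49, against 2.71, 3.27 and 2.64 in starch sheath after 5 days on medium. The groups lay far apart, with the gene above 99.2 to 99.8% of the probe sets on the cambium arrays, and the group mean of 9.29 ranked 88 of 22746. The mean difference was 6.42 ± 0.76 (SE of the fit over all arrays), or 85.5-fold, and no other probe set was higher in the cambium by more. Without cambium replicate 2 it was 5.72.

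After 2 days on NAA the tissue, still labelled starch sheath, gave 7.73, 9.23 and 5.51, against 3.16, 3.63 and 3.23 after 2 days on medium. Every NAA array was above every medium array, but the NAA arrays spread widely (7.49 ± 1.87, SD, n = 3, against 3.34 ± 0.25 on medium). The difference of 4.15 ± 0.76 (SE) was 17.7-fold and ranked 3 among all rises in that comparison. It was 3.28 without NAA replicate 2 and 5.14 without NAA replicate 3.

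Untreated starch sheath gave 2.97, 3.11 and 3.15, so the gene was low before culture as well. Relative to untreated sheath, the cambium was higher by 6.22 and the 2-day NAA sheath by 4.41 (SE 0.76 each), while the medium groups stayed close, at a difference of 0.26 after 2 days and -0.20 after 5 days. Both differences on medium were smaller than this SE, but it is pooled over all groups, including the widely spread NAA groups. All 2-day medium arrays lay above the untreated ones, and the difference of 0.26 exceeded the larger SD of 0.25. The 5-day medium range overlapped with the untreated one.

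**Figure D1:**
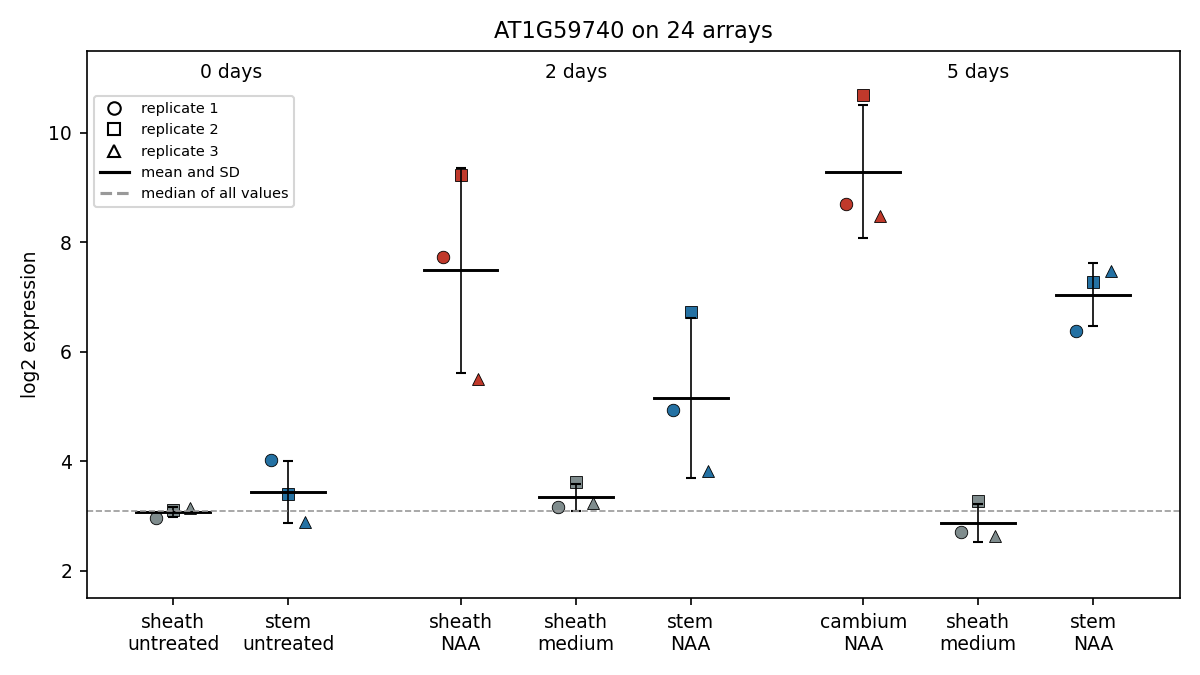
Log2 expression of AT1G59740 (y axis) on each of the 24 arrays, by group (x axis) and time; symbols are replicates 1 to 3, bars are the mean and SD of 3 arrays, and the dashed line is the median of all values, 3.09. Cambium and starch sheath on NAA are in red, sheath without NAA in grey and stem tissue in blue; 11 of the 12 NAA arrays sit above all 12 arrays without NAA.

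The stem tissue outside the sheath and bundles showed a rise that the choice of the gene did not use. Untreated stem tissue gave 4.02, 3.41 and 2.90, stem tissue after 2 days on NAA 4.94, 6.72 and 3.82, and stem tissue after 5 days on NAA 6.38, 7.28 and 7.47. The 5-day arrays were all above the untreated ones, whereas the 2-day arrays overlapped with both. After 5 days the gene rose 12.1-fold over untreated stem tissue (log2 difference 3.60 ± 0.76 SE, n = 3 each, adjusted p = 0.00967 in limma), rank 35 among all rises. In this comparison 2.37% of the 22746 probe sets were called higher and 1.63% lower. At 2 days the difference from untreated was 1.72 ± 0.76 (adjusted p = 0.284, with 3.23% of probe sets called in limma), and between 5 and 2 days it was 1.88 ± 0.76 (adjusted p = 0.421, with 0.857% called), so neither step passed alone. The 2-day difference was 0.94 without replicate 2 of the 2-day stem tissue and 0.14 with the GAPDH covariate described next, and the step between 5 and 2 days was 1.21 without replicate 3 of the 2-day stem tissue.

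The call at 5 days was lost without replicate 3 of the 5-day stem tissue (3.39, adjusted p = 0.0550). It was also lost when the excess of the GAPDH control's 3′ over its 5′ signal, a sign of how far amplified RNA is represented from its 3′ end, entered the limma fit as a covariate (1.77, adjusted p = 0.307). That excess was 6.40 to 7.29 on the log2 scale in the 5-day stem arrays, against 4.60 to 5.50 in the untreated stem arrays, with no overlap, and its part in the result was not tested further. Marker means are given for the same arrays. The mean of the 5 measured of 15 cambium markers was 5.06 to 5.94 in the 5-day stem arrays, against 4.06 to 5.10 in the untreated ones, and these ranges overlap. By gene, the 5-day and untreated stem means were 7.44 and 4.92 for CLE44, 6.36 and 5.22 for PHV. They were 3.30 and 2.85 for MOL1, 4.53 and 4.02 for LHW, and 5.72 and 5.37 for CLE41. CLE44 was lower in the cambium, at 5.80, than in 5-day stem tissue. The mean of the 7 measured of 13 photosynthetic markers was 5.74 to 6.32 in the 5-day stem arrays, against 6.91 to 7.68 in the untreated ones. Their part in the result was not tested, and a change in the mix of captured cells and a change of RNA per cell cannot be told apart in such samples.

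Among the cultured sheath and cambium arrays, on which the gene was chosen, the GAPDH excess was 6.14 to 6.67 in the 2-day NAA sheath, against 6.71 to 7.43 in the 2-day medium sheath, and 6.17 to 7.15 in the cambium, against 5.52 to 6.25 in the 5-day medium sheath. With the covariate the difference between NAA and medium was 4.98 at 2 days and 5.53 at 5 days. Against untreated sheath, whose excess was 3.93 to 4.83, the covariate reduced the difference to 3.75 for the cambium and to 2.23 for the 2-day NAA sheath. Its part in these levels was not tested further.

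Before culture no difference between the tissues was detected. Untreated starch sheath averaged 3.08 ± 0.09, against 3.44 ± 0.56 in untreated stem tissue (SD, n = 3 each). The difference of -0.37 ± 0.76 (SE) did not pass (limma, adjusted p = 0.857), in a comparison that called 0.202% of probe sets. Both ranges lay inside 2.90 to 4.02 and overlapped. The sign turned with the GAPDH covariate (0.47). The difference was -0.08 without untreated stem replicate 1 and -0.05 with cyclic loess. Without the 3 narrow arrays named further on, which leaves replicate 1 alone in untreated sheath, it was -0.75.

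On NAA the interfascicular tissue was above the stem tissue at both times. The cambium was higher than 5-day stem tissue by 2.25 ± 0.76 (SE), or 4.74-fold, and every cambium array was above every stem array. Without cambium replicate 2 this was 1.55. The 2-day sheath was higher than 2-day stem tissue by 2.33 ± 0.76 (SE), or 5.01-fold, with overlapping ranges, and by 1.46 without sheath replicate 2 or 3.31 without sheath replicate 3. For this 2-day pair of groups the replicate numbers paired the arrays over all probe sets, and within numbers the sheath was higher by 2.78, 2.51 and 1.69 (SD 0.57). The SE, the overlap of ranges and the values without sheath replicate 2 or 3 do not use this pairing. Over 5 days the interfascicular tissue gained 2.62 ± 1.07 (SE) more than the stem tissue did, the mean moving by 6.22, against 3.60 in stem tissue.

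Ordered by group mean, the gene was highest in the cambium (9.29 ± 1.21, SD, n = 3), followed by the 2-day NAA sheath (7.49 ± 1.87), 5-day NAA stem tissue (7.05 ± 0.58) and 2-day NAA stem tissue (5.16 ± 1.46). The groups without NAA followed, namely untreated stem tissue (3.44 ± 0.56), 2-day medium sheath (3.34 ± 0.25), untreated sheath (3.08 ± 0.09) and 5-day medium sheath (2.87 ± 0.35). Cambium and 2-day NAA sheath differed by 1.80 and the next neighbours by 0.44, both less than the larger SD of each pair. The same held for untreated stem tissue and 2-day medium sheath (0.10) and for untreated and 5-day medium sheath (0.20). The steps between 5- and 2-day NAA stem tissue, between 2-day NAA and untreated stem tissue, and between 2-day medium and untreated sheath exceeded the larger SD of their pair, but the ranges were separate only at the last, a step of 0.26 near the median of all values. The highest array without NAA was replicate 1 of untreated stem tissue at 4.02, and the lowest with NAA was replicate 3 of 2-day stem tissue at 3.82.

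After 2 days on NAA the arrays of AT1G59740 were staggered in the same way in both tissues, with replicate 2 highest and replicate 3 lowest. GH3.3, HAT2 and IAA29 had the same order of replicates on these arrays, and GH3.5 did not. GH3.3, whose product links auxin to amino acids, gave 8.37, 9.62 and 6.53 in the sheath and 5.93, 8.52 and 4.56 in stem tissue for replicates 1, 2 and 3. HAT2, an auxin-induced homeodomain gene, gave 9.49, 10.50 and 8.03 in the sheath and 8.45, 9.42 and 6.88 in stem tissue. IAA29, of the Aux/IAA repressors of auxin signalling, was likewise highest in replicate 2 and lowest in replicate 3 of both tissues. GH3.5, of the same family as GH3.3, gave 3.45, 6.45 and 3.54 in the sheath and 3.44, 6.05 and 3.38 in stem tissue, so that replicate 3 was not the lowest in the sheath. Over these 6 arrays AT1G59740 correlated with GH3.3 at r = 0.97, with HAT2 at 0.96, with IAA29 at 0.94, with AT1G14130 at 0.87 and with GH3.5 at 0.69, given as a description, since these arrays share treatment, amplification and replicate numbers. Same-numbered arrays of these groups also correlated over all probe sets (0.13 to 0.51). How many probe sets share this order or reach such an r was not computed. The auxin response genes GH3.1, LBD16 and LBD29 were not compared on these arrays, and over all 24 their r was -0.21, 0.03 and -0.23.

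At 5 days GH3.3 had another order than AT1G59740, and HAT2 had the same order in the cambium. GH3.3 was 6.95 ± 1.23 in the cambium and 7.85 ± 0.29 in 5-day stem tissue (SD, n = 3 each), a difference of -0.90 ± 0.83 (SE), while AT1G59740 was higher in the cambium. The cambium replicate with the most AT1G59740, replicate 2 at 10.68, had the least GH3.3 of the 3, at 5.95. HAT2 gave 9.27, 9.81 and 8.49 in the cambium, with replicate 2 highest and replicate 3 lowest as for AT1G59740, and was higher there than in 5-day stem tissue by 0.76 ± 0.66 (SE, adjusted p = 1.00 in limma), which did not pass. Over all 12 NAA arrays the correlation with AT1G59740 was 0.46 for GH3.3, 0.80 for HAT2 and 0.31 for IAA29.

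GH3.3 was 2.38 after 5 days on medium, against 4.89 in untreated sheath, a difference of -2.51 ± 0.83 (SE, adjusted p = 0.0763 in limma) that did not pass. AT1G59740 was 2.87 after 5 days on medium, against 3.08 in untreated sheath.

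**Figure D2:**
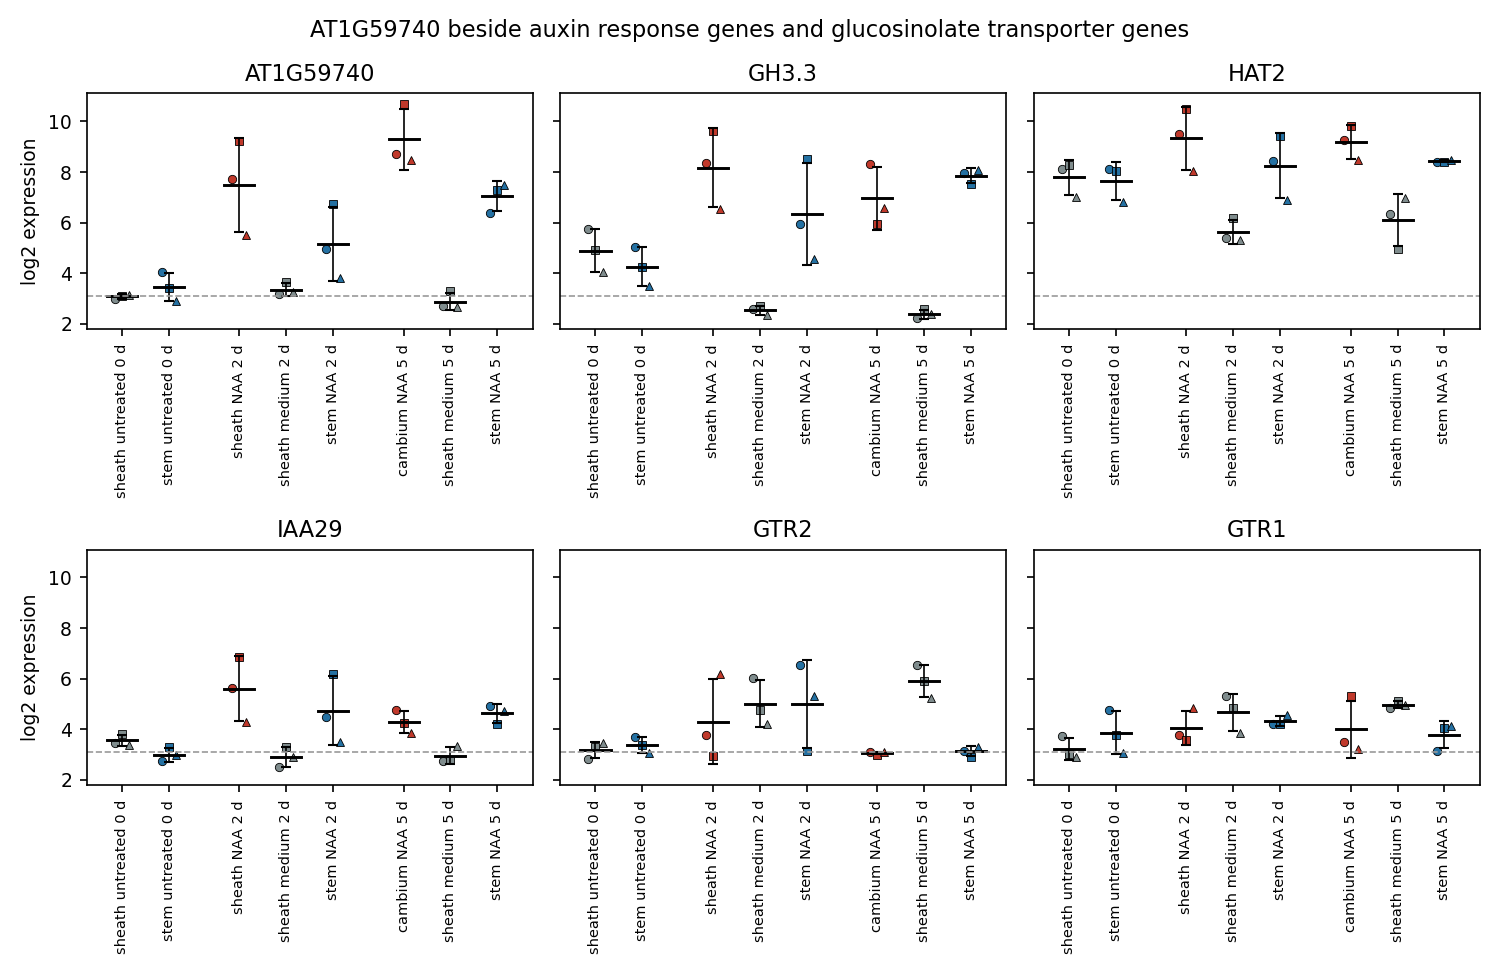
Log2 expression (y axes, same range) of AT1G59740, of the auxin response genes GH3.3, HAT2 and IAA29 and of the glucosinolate transporter genes GTR2 and GTR1 in the 8 groups (x axes); circles, squares and triangles are replicates 1, 2 and 3, bars are the mean and SD of 3 arrays, and the dashed line is the median of all values. In the 2-day NAA groups the square is highest and the triangle lowest for AT1G59740, GH3.3, HAT2 and IAA29, and GTR2 is high on medium where AT1G59740 is low.

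Of a list of 29 early auxin response genes, 8 were measured by a probe set of their own name. The list was drawn up with earlier results of these data known. Its counts and adjusted p-values, here and below, are therefore a description and no independent test. In the 2-day NAA sheath against medium 4 of the 8 were called higher and 0 lower, where 0.229% of all probe sets were called higher and 0.154% lower. These were GH3.3 (5.64 ± 0.83 SE, adjusted p = 0.00537), HAT2 (3.71 ± 0.66, adjusted p = 0.0181), IAA29 (2.70 ± 0.56, adjusted p = 0.0375) and AT1G14130 (1.34 ± 0.17, adjusted p = 0.00198), all in limma. The count was 0 when only the 6 arrays compared were fitted, and without 1 array it ran from 1 to 4: without NAA replicate 2, GH3.3 (adjusted p = 0.0521), HAT2 (0.129) and IAA29 (0.258) were lost in limma. HAT2 was also lost without any 1 of the 3 medium arrays (up to 0.0561), and IAA29 without any 1 of 10 of the 24 arrays.

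In the cambium against 5-day medium, 2 of the 8 were higher and 0 lower, GH3.3 by 4.58 ± 0.83 (SE, adjusted p = 0.00286) and HAT2 by 3.11 ± 0.66 (adjusted p = 0.00989 in limma). There 2.01% of all probe sets were called higher and 1.48% lower. The HAT2 call was lost without cambium replicate 2 (adjusted p = 0.0644) and without medium replicate 2 (0.0690) in limma. In 5-day against untreated stem tissue GH3.3 alone of the 8 was called, higher by 3.60 ± 0.83 (SE, adjusted p = 0.0171 in limma). This GH3.3 call was lost without untreated replicate 2 or 3 or without 5-day replicate 1 or 3 (adjusted p 0.0524 to 0.0757 in limma). The median difference of the 8 was 1.53, 0.43 and 0.63 in these 3 comparisons, against -0.06, 0.01 and -0.01 over all probe sets. Between cambium and 5-day stem tissue, cambium and untreated sheath, and 5-day medium and untreated sheath, limma called 0 of the 8, with 0, 3 and 3 at an unadjusted p under 0.05. Of all probe sets 0.251, 6 and 4.32% were called higher there and 0.106, 2.58 and 2.02% lower. The unadjusted shares over all probe sets were not set beside these counts, so nothing is read from them. In 5-day medium against untreated sheath all 8 differences were negative, from -2.51 to -0.02.

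The list also holds the auxin-inducible GH3.1, GH3.5, LBD16 and LBD29, which were called in none of the 6 comparisons. Of 28 auxin transport genes the 2 measured, WAG2 and PID2, and of 38 genes of nitrate uptake and assimilation the 1 measured, NRT2.5, were called in none of the 6 by limma either, and none of these 3 had an unadjusted p under 0.05. NRT2.5, a high-affinity nitrate transporter gene, had group means of 2.49 to 2.64, so the nitrate response of these tissues is hardly covered by named probe sets.

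Of 53 listed NPF loci 34 had a probe set of their own name, and 14 of the other 33 had no group mean above the median of all values, while 9 had a group mean above 4. Over the whole array, 14941 of 22746 probe sets had a group mean at or above that median. The group means of AT1G59740 spanned 6.42, the difference by which it was chosen, so that its excess over the spans of the other 33 (median 0.53, largest 2.84) is a description and nothing is read from it. None of the 33 had its highest group mean in the cambium, and 10 had it in untreated sheath, 10 in untreated stem tissue and 7 in 5-day medium sheath. Shares for the highest group and for a group mean above 4 were not computed over all probe sets, so nothing about the family is read from these counts. The untreated groups also hold the 3 narrow arrays named further on. Correlations of the 33 with AT1G59740 over 24 arrays ran from -0.71 to 0.39, with a median of -0.30. Ranks of a level among probe sets, and counts against the median of all values or against 4, are rough, since each probe set has its own sensitivity.

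Of the measured members of the NPF4 subfamily, NPF4.1, which carries gibberellin and abscisic acid in transport assays, had group means of 2.81 to 3.39 and was highest in untreated sheath. NPF4.2 lay between 2.37 and 2.77, NPF4.4 between 2.42 and 2.61, NPF4.5 between 2.53 and 2.82, with its highest mean in 5-day NAA stem tissue, and AT5G62730 between 2.76 and 2.94. In the cambium these 5 genes averaged 2.98, 2.52, 2.42, 2.69 and 2.94, against 2.97, 2.59, 2.56, 2.53 and 2.83 in 5-day medium sheath, in the order NPF4.1, NPF4.2, NPF4.4, NPF4.5 and AT5G62730.

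**Figure D3:**
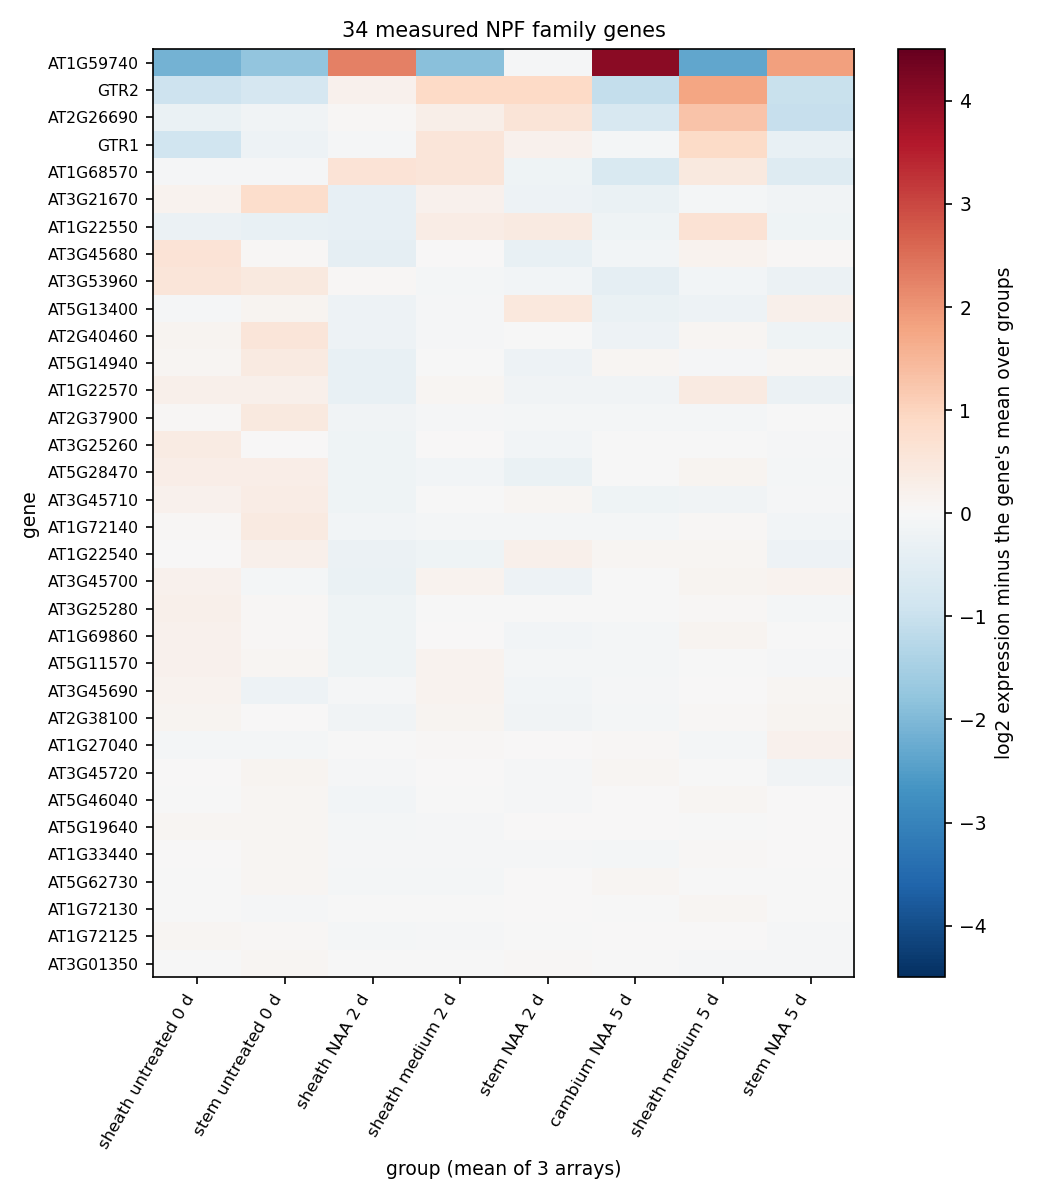
Mean log2 expression of 3 arrays a group minus each gene's mean over the 8 groups (colour) for the 34 measured NPF family genes (rows, sorted by the span of their group means) in the 8 groups (columns). AT1G59740, chosen for its levels on NAA, is above its own mean in the cambium, the 2-day NAA sheath and 5-day NAA stem tissue, and GTR2 is above its own in 5-day medium sheath.

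Calls among the other 33 are set beside the shares of all probe sets, and nothing about the family is read from counts this small. In the 2-day NAA sheath against medium limma called 0 of 33 (2 at an unadjusted p under 0.05). There 0.229% of all probe sets were called higher and 0.154% lower. Between cambium and 5-day stem tissue limma called 0 of 33 (1 unadjusted), where 0.251% of all probe sets were called higher and 0.106% lower. In the cambium against 5-day medium, where 2.01% were called higher and 1.48% lower, 0 were higher and 1 lower, GTR2. In the cambium against untreated sheath, where 6% of all probe sets were called higher and 2.58% lower, 0 were higher and 1 lower, AT3G53960. In 5-day against untreated stem tissue, where 2.37% were called higher and 1.63% lower, 0 were higher and 1 lower, the nitrate transporter gene NPF6.4. In 5-day medium against untreated sheath, where 4.32% were called higher and 2.02% lower, 2 were higher, GTR2 and GTR1, and 0 lower. The median differences of the 33 in these 6 comparisons were -0.16, -0.00, -0.11, -0.20, -0.13 and -0.04, against -0.06, -0.00, 0.01, -0.08, -0.01 and -0.08 over all probe sets. Of these 5 calls, GTR1 was lost on leaving out any 1 of 16 arrays, AT3G53960 any 1 of 17 and NPF6.4 any 1 of 18 (adjusted p up to 0.151, 0.155 and 0.198 in limma).

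GTR2 and GTR1 are importers that load glucosinolates, the defence compounds of the cabbage order, into the phloem, and GTR2 ran against AT1G59740 at 5 days. It gave 3.08, 2.99 and 3.08 in the cambium, against 6.53, 5.90 and 5.25 in 5-day medium sheath. The ranges were far apart, and GTR2 fell by 2.84 ± 0.73 on the log2 scale (SE, 7.18-fold, adjusted p = 0.0354 in limma). The call was lost without any 1 of the 6 arrays compared (adjusted p 0.0517 to 0.160) and with the GAPDH covariate (0.103), with sizes of -3.17 to -2.52 without 1 array. In untreated sheath GTR2 gave 2.80, 3.29 and 3.43, so the medium arrays were the high ones (2.72 ± 0.73 over untreated, adjusted p = 0.0328 in limma). That call was lost without untreated sheath replicate 2 or 3 or 5-day medium replicate 1 or 2 (adjusted p 0.0693 to 0.122 in limma). GTR1 was higher by 1.75 ± 0.51 in 5-day medium than in untreated sheath (SE, adjusted p = 0.0475 in limma), at 4.83, 5.10 and 4.93 against 3.71, 3.00 and 2.89. Without the 3 untreated arrays whose values spread least, untreated sheath is left with replicate 1 alone. The differences of 5-day medium from that array were 3.09 for GTR2 and 1.24 for GTR1, and no call is read from them.

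AT3G53960 was lower by 0.95 in the cambium (log2 difference -0.95, adjusted p = 0.0428 in limma), at 2.55, 2.49 and 2.69 against 4.38, 2.84 and 3.36 in untreated sheath. Without untreated sheath replicate 1 the difference was -0.52 (adjusted p = 0.0979 in limma). NPF6.4 was -0.94 in 5-day against untreated stem tissue (adjusted p = 0.0487 in limma), at 3.28, 3.25 and 3.02 against 3.92, 4.32 and 4.14. Both sets of ranges were separate, and AT1G59740 differed in the opposite direction by 6.22 and 3.60 in the same comparisons.

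In the 2-day NAA arrays GTR2 was lowest where AT1G59740 was highest. GTR2 gave 3.76, 2.94 and 6.19 in the sheath and 6.54, 3.13 and 5.31 in stem tissue for replicates 1, 2 and 3, so that replicate 2 was the low one in both. NPF6.2, a nitrate transporter gene chosen here after its values were seen, gave 3.52, 2.49 and 4.98 in the sheath and 4.35, 2.80 and 5.41 in stem tissue, with replicate 2 lowest and replicate 3 highest. Over the 6 arrays their correlations with AT1G59740 were -0.80 and -0.89. The sheath arrays among them also served to choose AT1G59740, and how many probe sets reach such an r was not computed. At 5 days NPF6.2 gave 2.69, 2.99 and 2.92 in the cambium, against 4.76, 5.39 and 4.49 on medium, a difference of -2.01 ± 0.57 (SE, adjusted p = 0.0582 in limma), which did not pass. Since NPF6.2 was chosen after its values were seen, they are a description and nothing is read from them.

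Among the 13512 other probe sets with 1 named gene, 29 correlated with AT1G59740 above 0.8 over the 24 arrays and 3 under -0.8, around a median of -0.14. The arrays share groups, amplification and normalization, so these values describe likeness only. The closest was AT1G76470, at r = 0.95. It gave 5.37, 6.95 and 5.27 in the 2-day NAA sheath and 5.94, 6.10 and 5.72 in the cambium. NAA stem tissue gave 3.79, 5.21 and 3.42 at 2 days and averaged 5.16 ± 0.75 at 5 days (SD, n = 3). On the 12 arrays without NAA it stayed between 2.33 and 2.89. All 12 NAA arrays of AT1G76470 lay above its 12 others, as 11 of 12 did for AT1G59740. Its replicate 2 was highest at 2 days in both tissues, and it averaged 5.92 ± 0.19 in the cambium and 5.86 ± 0.94 in the 2-day sheath (SD, n = 3 each).

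The next 9 were AT1G02110, AT5G48480, AT1G32190, LCR69, AT5G50130, AT2G44830, AT3G51670, AT5G18470 and AT1G19530, at r from 0.90 down to 0.86. LCR69, a plant defensin gene, was 7.69 ± 0.75 in the cambium, against 2.73 ± 0.08 in 5-day medium sheath, and differed from AT1G59740 in being at 3.05 ± 0.74 in 2-day NAA stem tissue. AT1G19530 was 7.75 ± 1.22 in the cambium, against 2.52 ± 0.11 in 5-day medium sheath (SD, n = 3 each). AT5G18470 was not low in every group without NAA, at 4.31 ± 0.33 in 5-day medium sheath, against 3.18 ± 0.38 in untreated sheath (SD, n = 3 each). The 5 most opposite genes were AT5G18590 (r = -0.83), AT2G21960, AT4G34950, AT5G50450 and the cytochrome P450 gene CYP71B26 (-0.79). AT5G18590 averaged 3.99 ± 0.39 in the cambium, against 6.60 ± 0.23 in 5-day medium sheath. Which genes fill the list depends on the measure: 2 of the 10 most alike remained by Spearman's rho and 4 by r over the 8 group means, and 5 remained without cambium replicate 2.

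**Figure D4:**
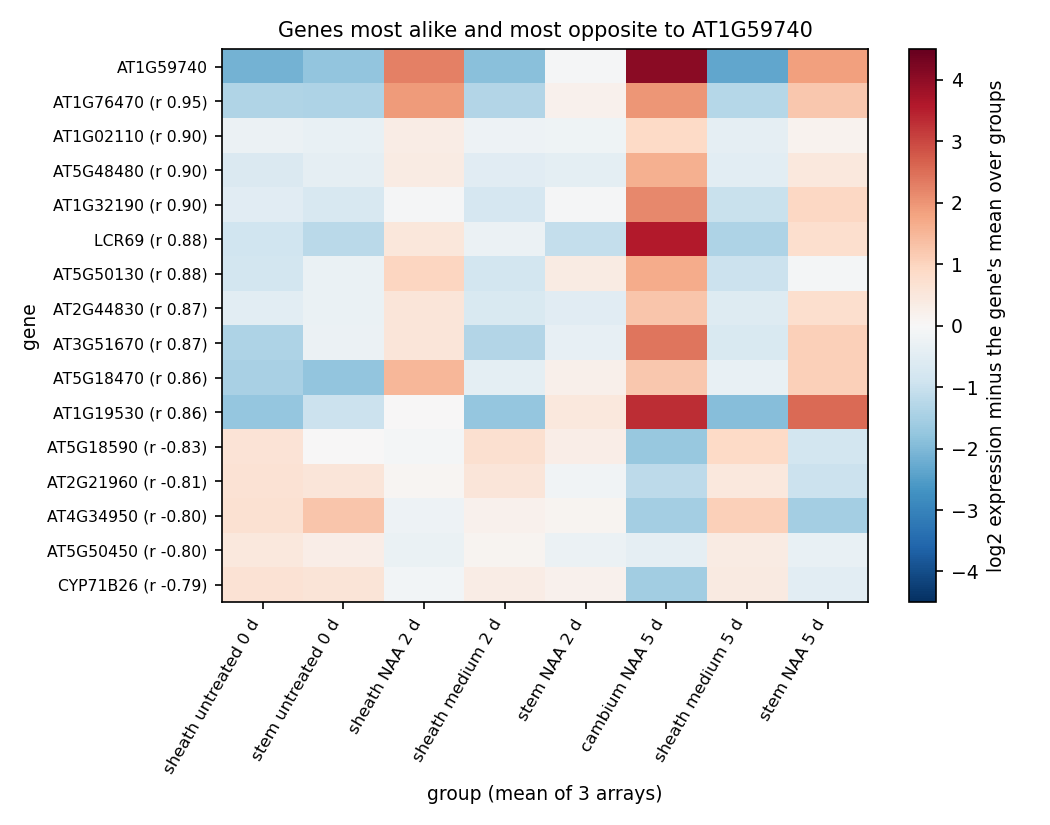
Mean log2 expression minus each gene's mean over the 8 groups (colour) for AT1G59740, the 10 genes most like it and the 5 most opposite by Pearson r over 24 arrays (rows, with r), in the 8 groups (columns). The 10 genes are above their own mean in the cambium, and the 5 opposite genes are below theirs.

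The genes adjacent to AT1G59740 on chromosome 1, TH7 and ARF1 in the gene table of assembly TAIR10.1, are not measured by a probe set of their own name in the annotation used. The nearest measured gene on one side, AT1G59725, had group means of 2.42 to 2.64 (r = -0.22 over 24 arrays), and the nearest on the other side, AT1G59780, had 2.21 to 2.45 (r = -0.50), in both cases under the median of all values in every group.

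Array checks bear on these values. Values spread less on 3 arrays, untreated sheath replicates 2 and 3 and untreated stem tissue replicate 3, where the SD over probe sets was 0.955 to 1.08 and not 1.22 to 1.57 as on the other 21. Leaving these 3 out keeps replicate 1 alone in untreated sheath, and replicates 1 and 2 in untreated stem tissue. Against that sheath array AT1G59740 was higher by 6.32 in the cambium and by 4.52 in the 2-day NAA sheath. In 5-day stem tissue it was higher than in untreated stem tissue by 3.33 (adjusted p = 0.0400 in limma). Cambium markers averaged 5.11 to 6.33 in the cambium, 4.40 to 4.49 in 5-day medium sheath and 5.06 to 5.94 in 5-day stem tissue, and PXY and WOX4 are not among the 5 measured. The ranges of the cambium and of 5-day stem tissue overlap. The 2 measured of 12 starch sheath markers, JKD and SBE2.2, averaged 3.72 to 3.82 in untreated sheath, against 3.45 to 3.79 in untreated stem tissue, which overlap, and SCR is not among them. IRX10 stood alone for 17 xylem and fibre markers, at 3.04 to 3.34 in the cambium, against 2.85 to 3.23 in 5-day medium sheath. SWEET11 stood alone for 14 phloem markers, at 3.14 to 3.79 in the cambium, against 3.21 to 3.62 in 5-day medium sheath, and 0 of 12 epidermis markers were measured. The photosynthetic markers averaged 5.77 to 6.61 in the cambium, against 7.15 to 7.89 in 5-day medium sheath, and 7.49 to 8.04 in the 2-day NAA sheath, against 6.90 to 7.37 in 2-day medium sheath. Their part in the levels of AT1G59740 was not tested.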

How the data were processed

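Expression values were taken from the single table of the whole series that the authors deposited. RMA and limma are the tools listed in the submitters' processing notes, with no version. The deposited values (1.73 to 13.51) were read as log2 expression, the scale RMA gives, although the table does not state the base of the logarithm. Amplified RNA is measured near its 3′ end, which favours probe sets there.

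Of 22810 probe sets 64 are controls, and 22746 were tested. In the annotation 13513 probe sets name 1 gene, 503 several and 8730 none. Symbols were matched to RefSeq's TAIR10.1 gene table for 13436 probe sets (13286 loci), and probe sets with several genes were left unnamed. A model with 1 mean per group over 24 arrays was fitted in limma 3.58.1 (R 4.3.3, statmod 1.5.0) with eBayes (prior degrees of freedom 2.55, residual 16). Tests were two-sided, with Benjamini-Hochberg adjustment over all probe sets of a comparison and a threshold of 0.05. Folds are log2 differences turned back to a linear scale. The limma step was tested on simulated data. The number of arrays limits the precision, and p-values measure the spread between the labelled biological replicates.

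Same-numbered replicates were checked by the correlation of their deviations from group means. Only in 2-day NAA sheath against 2-day NAA stem tissue were all 3 above 0.1 (0.13 to 0.51), so numbers were taken as pairs there alone, on the data and the shared label number.

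The gene and the gene lists were chosen with earlier results of these data known. Named genes were AT1G59740, the measured NPF4 members, NPF genes called in any of 6 comparisons, up to 4 called members of each other list, the 10 most and 5 least alike genes, the nearest measured neighbours and markers. NRT1.1, also in the rule, has no probe set of its own name here. A comparison of proteins and promoters was not made, since no sequences were used here.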

Additional observations from a re-analysis of the deposited data

How the results depend on the processing

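The levels of AT1G59740 were recomputed with cyclic loess, quantile normalization, the GAPDH covariate, medians and each array left out, and, for differences from untreated sheath, without the 3 narrow arrays, an alternative chosen after seeing the data. That alternative leaves replicate 1 alone in untreated sheath. All 6 differences kept their sign. The GAPDH covariate alone moved any beyond 1 SD, to 3.75 for cambium and 2.23 for 2-day NAA sheath against untreated sheath. The 5-day rise in stem tissue kept its call except with that covariate (1.77, adjusted p = 0.307) and in 1 fit that left out an array (3.33 to 3.93, adjusted p 0.00261 to 0.0550). With the replicate number as a block its adjusted p was 0.00256 in limma. The difference between untreated sheath and untreated stem tissue, -0.37, passed in no setting and turned to 0.47 with the covariate. The replicate block changed no other call of AT1G59740, moved the count of called NPF genes in cambium against 5-day medium to 2, and lost GTR1 (adjusted p = 0.0561).

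Counts of called genes depended more on the setting. Called NPF genes in cambium against 5-day medium numbered 2 with only the groups compared, without dim probe sets (14941 left), with cyclic loess, with quantile normalization and with the trend and robust prior, 6 with array weights and 0 with the GAPDH covariate. In cambium against untreated sheath they numbered 0 with only the groups compared, cyclic loess, quantile normalization, the GAPDH covariate or a minimum of 2-fold, and 3 with array weights. No count is given there without the narrow arrays, which leaves replicate 1 alone in untreated sheath. In 5-day against untreated stem tissue called NPF genes numbered 0 with quantile normalization or the 2-fold minimum, 7 with array weights, 2 with the covariate and 3 without the narrow arrays. In 5-day medium against untreated sheath they numbered 0 with cyclic loess and 1 with the covariate, in cambium against 5-day stem tissue 1 with array weights, and in the 2-day sheath 5 with the covariate. Called auxin genes numbered 0 in the 2-day sheath with only the groups compared, 1 in cambium against 5-day medium with the covariate, and 3 in cambium against untreated sheath with array weights. In stem tissue at 5 days they numbered 3 with only the groups compared or array weights and 0 with the covariate or without the narrow arrays, and in 5-day medium against untreated sheath 2 with either normalization and 1 with array weights. With 1 array left out, NPF counts ran from 0 to 2 in cambium against 5-day medium, 0 to 1 against untreated sheath, 0 to 2 in stem tissue and 0 to 4 in 5-day medium. Auxin counts ran from 1 to 4, 1 to 2, 0 to 1, 0 to 1 and 0 to 1 in 2-day sheath, cambium against medium, cambium against untreated, stem tissue and 5-day medium. Of the 10 most alike genes 2 remained by Spearman's rho, 4 by group means and 5 to 10 with an array left out. The share of all probe sets called in each setting was not set beside these counts, so nothing about the lists is read from them. Of the 6 NPF genes called with array weights in cambium against 5-day medium, 0 were higher. The same held for the 5 called with the covariate in the 2-day sheath. Of the 7 called with array weights in 5-day against untreated stem tissue, 2 were higher. The cause of these moves was not tested. No NPF gene has several probe sets, so averaging them changes nothing, and the motif search was not run. Of the 22746 probe sets, 8730 carry no name in the annotation used, 3 arrays a group limit each call, and several genes lie near the median of all values, where small differences are hard to see.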
